A study of Mus musculus with 12 samples.

Results

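The mitosis and spindle genes are a set of 45 genes whose products run cell division, from the cyclins that start it to the proteins that separate the daughter cells. They were chosen by name. Probe sets annotated to a single gene were used, 103 in all for 44 of the 45 genes, out of 18194 genes with such a probe set. Ccnb1 was not analysed here. The genes fall into 9 role groups: mitotic entry, chromosome compaction, spindle microtubule proteins, kinesin motors, kinetochore, spindle checkpoint, anaphase onset, chromosomal passenger complex and cytokinesis.

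The arrays came from mouse otic vesicles, the closed epithelial cups from which the inner ear grows, and from a cell line. There were 6 groups of 2 arrays, each from its own pool or culture. The vesicle groups were Dlx5-null at E10.5, wild type at E10.5, Dlx5-null at E10 and wild type at E10 (E for embryonic day). The cell line groups were 2B1 cells transfected with Dlx5 and GFP and 2B1 cells transfected with a vector that held GFP alone. Each vesicle replicate pooled 4 to 8 vesicles dissected free and treated with dispase to take off mesenchyme, and the pools of both genotypes shared this handling. All 2B1 cultures were grown at 32 °C with gamma-interferon, then transfected and kept for 4 days at 37 °C without it. Dlx5 encodes a homeobox transcription factor of the dorsal otic vesicle. The labels give neither the null allele in detail nor the sex of the embryos.

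Mitosis is driven by Cdk1 bound to cyclins, which has condensin and topoisomerase compact the chromosomes while kinesins and their partners build the spindle. The checkpoint kinases and Mad2 hold back the anaphase-promoting complex until every kinetochore is attached, and separase then opens the sister chromatids. Most of these genes are transcribed late in the cell cycle, so that their mRNA in a tissue is widely used as a measure of how many cells are dividing. The early otic vesicle is a dividing epithelium from which neuroblasts leave.

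Values are log2 levels as deposited, with differences taken on the same scale. The 8 vesicle arrays were fitted in 1 model over all genes and the 4 cell line arrays in another, and a gene passed the test at an adjusted p under 0.05 (limma with Benjamini-Hochberg adjustment). Of 13645 genes tested in vesicles and 13647 in 2B1 cells, 44 were mitosis genes. Since whole vesicles were measured, fewer dividing cells and less RNA in each cannot be told apart.

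Some arrays stood apart. The replicate 1 arrays of both genotypes at E10 had a narrower spread of values over all probe sets (SD of 2.33 in labelled-null and 2.32 in wild type) than the replicate 2 arrays (2.45 and 2.47). Their Xist values were 4.98 and 5.07, while the other 6 vesicle arrays read 8.91 to 9.72. The Dlx5 probe set went against the labels, with 7.27 to 8.02 in the 4 arrays labelled null and 6.11 to 6.30 in the 4 wild-type arrays, and whether it lies outside the deleted part is not given in the sources used here. These arrays are therefore called labelled-null, and a direction between genotypes stands only for the labels. In 2B1 cells Dlx5 read 5.14 and 4.80 on the arrays labelled Dlx5-transfected, against 4.66 and 4.79 with the empty vector. The lower Dlx5 array was level with an empty vector array, so that a higher Dlx5 level was not shown, and the names of these groups too stand only for the labels. The 10 measured markers of otic epithelium summed to log2 levels of 9.19 to 9.33 in 2B1 cells and 12.76 to 14.10 in vesicles, which goes against the otic label of the line, although the sets appear to have been normalized apart.

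The mitosis genes moved together from array to array. Over the 8 vesicle arrays the median Pearson correlation of their 946 pairs was 0.541, while over all genes tested it was 0.038. The pairs share arrays, and stage was not taken out first, so that differences between the stages enter this correlation. It is given as a description. On the labelled-null E10.5 arrays 14 and 5 of the 44 genes lay above their own mean over the 8 arrays, and on the wild-type E10.5 arrays 9 and 11 did. On the E10 arrays 28 and 40 lay above it in labelled-null and 27 and 40 in wild type. The lower number at E10 belonged in each genotype to replicate 1.

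The promoters of these genes share letters known from cell cycle genes. They are CCAAT, bound by NF-Y, and TTTGAA or TTTAAA, the letters of the cell cycle homology region through which the DREAM and MuvB complexes act. Each was searched on both strands in windows of 300 bases, 250 before to 50 after the start site. Windows were found for 39 of the 45 genes, 42 windows in all. CCAAT was in 32 of the 42 (76.2%, against 37.4% of all 32851 windows of the table) and TTTGAA in 31 (73.8%, against 17.9%). TTTAAA was in 9 (21.4%, against 13.2%), TTTGAA or TTTAAA in 34 (81.0%, against 27.6%), and CCAAT with either of them in 29 (69.0%, against 10.7%). CCAAT can share its last base with the other motifs, and a match is not a binding site. The windows of Ccnb2, Cdk1, Plk1 and Birc5 are shown as well known genes of the set, with Ccnb2 in place of Ccnb1, those of Kif11 and Anln as genes that fell between stages under every setting run, and that of Bub1 as the gene with the largest stage difference, the last 3 chosen after their values were seen. In 3 of the 42 windows, those of Kif2c, Pttg1 and Ncapd2, the start site lay over 500 bases inside the annotated gene, and none of these is shown. Capitals mark both motifs on either strand, 5′ to 3′ along the gene's strand.
Ccnb2: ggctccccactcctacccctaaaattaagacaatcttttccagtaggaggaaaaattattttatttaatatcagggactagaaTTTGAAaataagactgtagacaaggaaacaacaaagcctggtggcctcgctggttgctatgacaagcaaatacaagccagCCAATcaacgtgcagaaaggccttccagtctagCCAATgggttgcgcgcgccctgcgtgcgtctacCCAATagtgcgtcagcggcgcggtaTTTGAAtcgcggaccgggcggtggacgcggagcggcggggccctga
Cdk1: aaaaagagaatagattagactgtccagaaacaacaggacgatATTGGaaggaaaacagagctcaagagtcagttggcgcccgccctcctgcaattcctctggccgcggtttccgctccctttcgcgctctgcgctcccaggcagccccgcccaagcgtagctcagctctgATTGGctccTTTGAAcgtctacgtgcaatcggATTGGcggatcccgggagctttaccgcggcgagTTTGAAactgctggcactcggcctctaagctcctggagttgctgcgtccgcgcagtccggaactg
Plk1: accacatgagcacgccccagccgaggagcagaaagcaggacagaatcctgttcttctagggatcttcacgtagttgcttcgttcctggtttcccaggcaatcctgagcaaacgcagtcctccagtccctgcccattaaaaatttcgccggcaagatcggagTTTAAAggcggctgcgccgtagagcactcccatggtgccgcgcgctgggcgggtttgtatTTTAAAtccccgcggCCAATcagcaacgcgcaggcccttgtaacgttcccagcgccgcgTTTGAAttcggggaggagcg
Birc5: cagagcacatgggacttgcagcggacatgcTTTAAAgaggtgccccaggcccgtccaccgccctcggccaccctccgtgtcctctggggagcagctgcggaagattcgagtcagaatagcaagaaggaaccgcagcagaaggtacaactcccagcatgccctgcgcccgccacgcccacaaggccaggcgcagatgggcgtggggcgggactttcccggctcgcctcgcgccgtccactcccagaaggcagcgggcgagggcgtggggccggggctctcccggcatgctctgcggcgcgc
Kif11: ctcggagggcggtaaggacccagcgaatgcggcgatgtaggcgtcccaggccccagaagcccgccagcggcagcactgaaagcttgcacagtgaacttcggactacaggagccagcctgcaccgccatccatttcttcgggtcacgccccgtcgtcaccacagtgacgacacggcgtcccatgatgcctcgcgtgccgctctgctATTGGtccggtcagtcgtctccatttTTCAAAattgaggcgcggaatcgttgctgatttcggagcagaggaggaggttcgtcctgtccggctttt
Anln: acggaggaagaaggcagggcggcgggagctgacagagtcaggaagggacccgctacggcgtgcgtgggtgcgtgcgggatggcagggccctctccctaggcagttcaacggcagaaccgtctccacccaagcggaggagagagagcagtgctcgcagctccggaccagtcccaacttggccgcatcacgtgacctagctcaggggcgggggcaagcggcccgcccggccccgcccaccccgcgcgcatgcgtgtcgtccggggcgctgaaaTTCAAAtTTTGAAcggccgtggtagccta
Bub1: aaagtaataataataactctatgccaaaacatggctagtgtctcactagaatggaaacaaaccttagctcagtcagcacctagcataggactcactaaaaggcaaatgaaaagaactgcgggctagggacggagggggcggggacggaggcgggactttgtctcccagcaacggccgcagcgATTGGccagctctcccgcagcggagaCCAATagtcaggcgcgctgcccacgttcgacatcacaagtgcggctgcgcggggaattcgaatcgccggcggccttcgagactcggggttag

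These sequences are RefSeq's on the GRCm38.p6 build: Ccnb2 chr9:70421505-70421804 (minus strand), Cdk1 chr10:69352863-69353162 (minus strand), Plk1 chr7:122159185-122159484 (plus strand), Birc5 chr11:117848987-117849286 (plus strand), Kif11 chr19:37376132-37376431 (plus strand), Anln chr9:22389157-22389456 (minus strand) and Bub1 chr2:127831810-127832109 (minus strand). Ccnb2 and Cdk1 each held 3 CCAAT and 2 of the other motif. Kif11 held 1 of each, with CCAAT starting at position -45 and TTTGAA at -19 from the start site. Bub1 held 2 CCAAT and no TTTGAA or TTTAAA, and Anln had the reverse. CCAAT was in 10 of 14 windows of genes that fell between stages and in 21 of 26 windows of tested genes that did not pass. TTTGAA was in 9 of 14 and 22 of 26, TTTAAA in 1 of 14 and 7 of 26, and CCAAT with either of the others in 8 of 14 and 20 of 26. Each share was lower among the genes that fell, and the differences were not tested.

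The first comparison asks how the mitosis genes differ between E10.5 and E10 vesicles, with both genotypes in the fit. Between the stages 15 of 44 mitosis genes fell, against 6.54% of all genes tested. Only Pttg1 rose, 1 of 44, against 9.28% of all genes. The cytokinesis genes Anln and Ect2, the kinesin Kif11, the condensin subunit Ncapg and the checkpoint kinase Bub1 had 0.394 to 0.530 times their E10 level at E10.5. The median log2 difference of the 44 genes was -0.34, and that of all genes was 0.045. In 25 of the 44 the E10.5 and E10 arrays did not overlap, against 25.3% of all genes, and 24 of these were lower at E10.5.

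**Figure D1:**
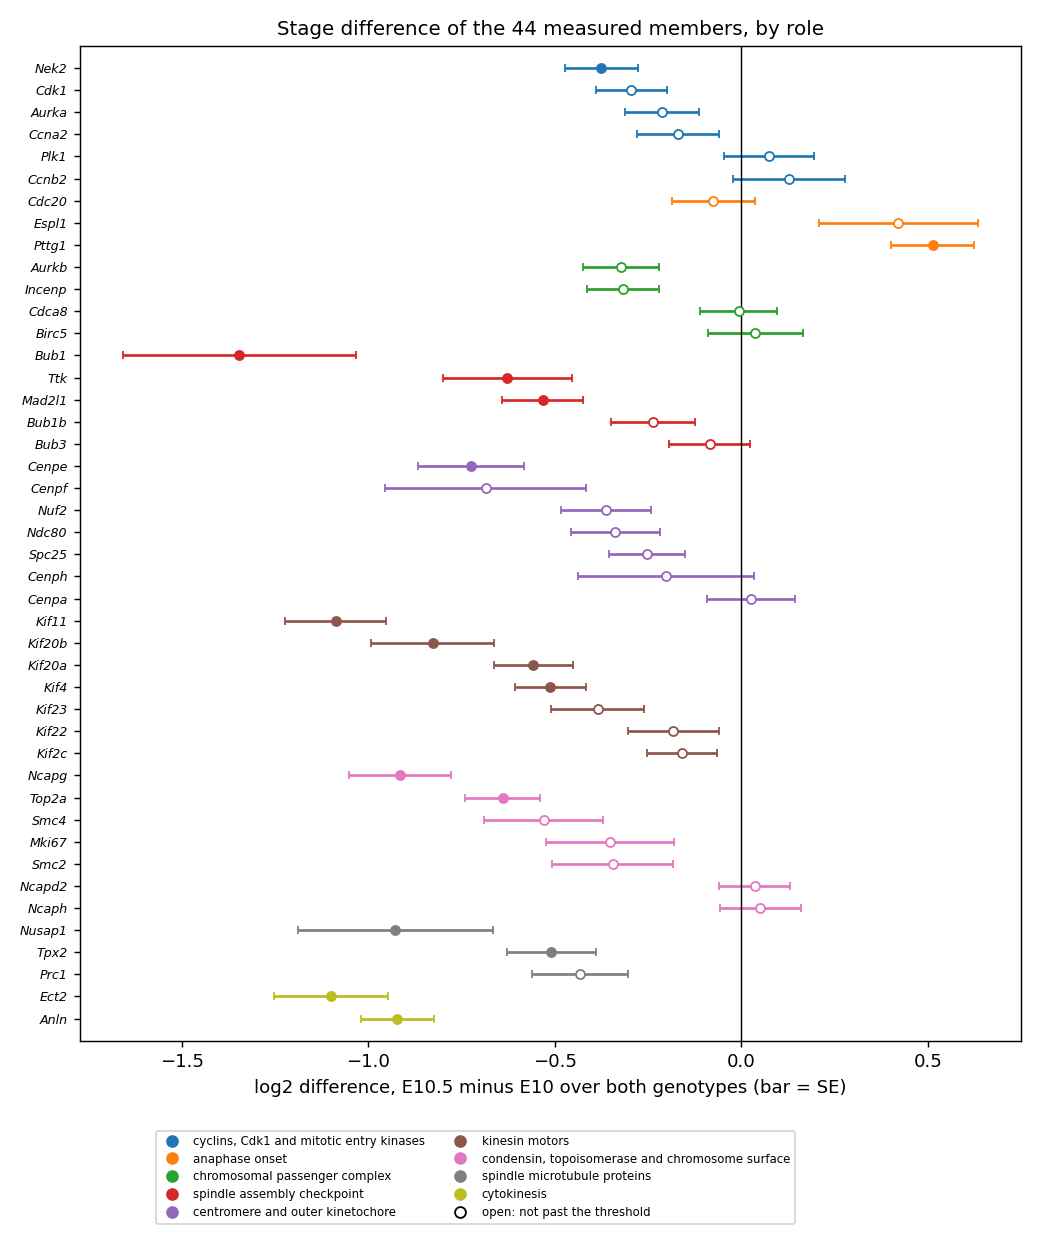
Log2 difference between E10.5 and E10 over both genotypes for each of the 44 measured mitosis genes (x axis), grouped by role (y axis), with the SE as bars. Bub1 lies farthest left at -1.35, Pttg1 farthest right at 0.51, and 36 of the 44 lie below 0.

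Of 6 measured genes of mitotic entry 1 fell, and the median of the group was -0.19. Nek2, a kinase that parts the centrosomes, read 9.92 and 9.98 in labelled-null and 9.92 and 10.13 in wild-type vesicles at E10.5, against 10.35 and 10.36 in labelled-null and 10.35 and 10.39 in wild type at E10. It was lower on all 4 E10.5 arrays and fell by 0.38 (SE 0.10, adjusted p 0.0370). Cdk1, the kinase at the centre of mitotic entry, read 11.89 and 11.76 in labelled-null and 11.97 and 11.93 in wild type at E10.5, against 12.04 and 12.13 in labelled-null and 12.24 and 12.32 in wild type at E10. Its arrays did not overlap either, with a difference of -0.30 (SE 0.10) that lay outside the threshold (adjusted p 0.0685). Plk1, a kinase of spindle assembly and mitotic exit, read 12.97 on both labelled-null arrays and 12.99 and 12.93 in wild type at E10.5, against 12.74 and 13.06 in labelled-null and 12.71 and 13.05 in wild type at E10. Its E10 replicates lay on either side of the E10.5 values (difference 0.08, SE 0.12, adjusted p 0.693).

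The A-type cyclin Ccna2 read 9.78 and 9.68 in labelled-null and 9.64 and 9.57 in wild type at E10.5, against 9.69 and 9.76 in labelled-null and 9.95 in both wild-type arrays at E10. The labelled-null stages overlapped and the wild-type stages did not (difference over both -0.17, SE 0.11, adjusted p 0.312). The B-type cyclin Ccnb2 read 9.76 and 9.43 in labelled-null and 9.71 and 9.66 in wild type at E10.5, against 9.21 and 9.66 in labelled-null and 9.38 and 9.80 in wild type at E10. Its stages overlapped (0.13, SE 0.15, adjusted p 0.580). Aurka, the centrosomal Aurora kinase, differed by -0.21 (adjusted p 0.169) with no overlap.

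Of 7 genes of chromosome compaction and the chromosome surface 2 fell, with a median of -0.35. Ncapg, a subunit of condensin I, read 10.91 and 10.68 in labelled-null and 10.32 and 10.36 in wild type at E10.5, against 11.56 and 11.41 in labelled-null and 11.63 and 11.33 in wild type at E10. It fell by 0.92 (SE 0.14, adjusted p 0.00660), and the stages did not overlap. Top2a, the topoisomerase that untangles sister chromatids, read 10.59 and 10.42 in labelled-null and 10.40 and 10.45 in wild type at E10.5, against 11.06 and 11.14 in labelled-null and 11.02 and 11.20 in wild type at E10. It fell by 0.64 (SE 0.10, adjusted p 0.00750), and its stages did not overlap. Mki67, which coats the mitotic chromosome and is the usual proliferation marker, read 10.13 and 9.76 in labelled-null and 9.47 and 9.69 in wild type at E10.5, against 9.93 and 10.44 in labelled-null and 9.81 and 10.28 in wild type at E10. The higher labelled-null E10.5 array lay within the E10 range, and the difference of -0.35 (SE 0.17) did not pass (adjusted p 0.184).

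The other condensin genes were uneven. Smc4, a core subunit of both condensins, read 9.87 and 9.94 in labelled-null and 9.54 and 9.57 in wild type at E10.5, against 9.89 and 10.46 in labelled-null and 10.33 and 10.36 in wild type at E10. Its difference of -0.53 (SE 0.16) lay just outside the threshold (adjusted p 0.0570). Smc2, the partner of Smc4, read 9.53 and 9.37 in labelled-null and 8.93 and 9.05 in wild type at E10.5, against 9.38 and 9.83 in labelled-null and 9.28 and 9.77 in wild type at E10, with overlap (-0.35, SE 0.16, adjusted p 0.174). The condensin I subunits Ncaph and Ncapd2 differed by 0.05 and 0.04 (adjusted p 0.776 and 0.823), and Ncaph read 13.07 and 13.08 in labelled-null and 13.13 and 13.08 in wild type at E10.5, against 12.99 and 13.19 in labelled-null and 12.86 and 13.12 in wild type at E10. Within 1 complex Ncapg therefore fell while the arrays of Ncaph and Ncapd2 overlapped, although the difference between subunits was not tested. For Smc2 and Smc4 other probe sets than the brightest passed when each set was tested singly, at -0.92 and -0.56 for Smc2 and -0.62 for Smc4.

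All 7 kinesin motors had negative differences, and 4 of them fell (median -0.51). Kif11, the motor that pushes the spindle poles apart, read 8.46 and 8.02 in labelled-null and 7.93 and 8.05 in wild type at E10.5, against 9.19 and 9.15 in labelled-null and 9.13 and 9.34 in wild type at E10. It fell by 1.09 (0.471-fold, SE 0.14, adjusted p 0.00451), with a gap between the stages wider than the spread within either. Kif4, a chromosome-bound motor, read 11.58 and 11.52 in labelled-null and 11.57 and 11.48 in wild type at E10.5, against 11.98 and 12.13 in labelled-null and 12.04 and 12.05 in wild type at E10. It fell by 0.51 (SE 0.09, adjusted p 0.0124), and its replicates lay close together.

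Kif20a, a motor of the spindle midzone, read 7.90 and 7.95 in labelled-null and 8.07 and 7.92 in wild type at E10.5, against 8.53 and 8.51 in labelled-null and 8.37 and 8.66 in wild type at E10, and fell by 0.56 (SE 0.11, adjusted p 0.0139) without overlap. Its relative Kif20b read 8.68 and 8.54 in labelled-null and 7.79 and 8.04 in wild type at E10.5, against 9.09 and 9.52 in labelled-null and 8.59 and 9.16 in wild type at E10. It fell by 0.83 (SE 0.17, adjusted p 0.0162), although the stages overlapped when genotypes were pooled, since 1 labelled-null E10.5 array lay above the lowest wild-type E10 array. Kif23, the centralspindlin motor, read 8.15 and 7.90 in labelled-null and 8.25 and 8.33 in wild type at E10.5, against 8.49 and 8.45 in labelled-null and 8.41 and 8.82 in wild type at E10, without overlap but outside the threshold (-0.39, SE 0.12, adjusted p 0.0681). Kif2c, which takes microtubules apart at centromeres, and Kif22, which pushes chromosome arms, differed by -0.16 and -0.18 (adjusted p 0.267 and 0.323).

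Among the 3 spindle microtubule proteins 2 fell. Tpx2, which starts microtubules near chromosomes and activates Aurora A, read 9.29 and 9.11 in labelled-null and 9.32 and 9.31 in wild type at E10.5, against 9.92 and 9.66 in labelled-null and 9.60 and 9.89 in wild type at E10. It fell by 0.51 (SE 0.12, adjusted p 0.0264), without overlap between the stages. Nusap1, which bundles spindle microtubules, read 9.46 and 9.26 in labelled-null and 9.19 and 9.13 in wild type at E10.5, against 9.80 and 10.94 in labelled-null and 9.59 and 10.42 in wild type at E10. It fell by 0.93 (SE 0.26, adjusted p 0.0465), and most of its E10 spread lay between replicates. Prc1, the bundler of the midzone, read 9.30 and 9.04 in labelled-null and 9.41 and 9.31 in wild type at E10.5, against 9.65 and 9.75 in labelled-null and 9.49 and 9.90 in wild type at E10, and lay just outside the threshold (-0.43, SE 0.13, adjusted p 0.0547).

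Of the 7 centromere and outer kinetochore genes 1 fell, with a median of -0.34. Cenpe, the kinetochore motor that brings chromosomes to the spindle equator, read 11.99 and 11.88 in labelled-null and 11.34 and 11.38 in wild type at E10.5, against 12.29 and 12.71 in labelled-null and 12.07 and 12.42 in wild type at E10. It fell by 0.73 (SE 0.14, adjusted p 0.0151), and the highest E10.5 value lay just under the lowest E10 value. Cenpf, a large protein of the outer kinetochore, read 9.34 and 9.23 in labelled-null and 8.80 and 8.63 in wild type at E10.5, against 9.14 and 10.29 in labelled-null and 9.28 and 10.03 in wild type at E10. At E10 replicate 1 minus replicate 2 was -1.15 in labelled-null and -0.75 in wild type, and the stage difference of -0.69 (SE 0.27) did not pass (adjusted p 0.113).

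Ndc80 and Nuf2, which form the microtubule-binding end of the Ndc80 complex, differed by -0.34 and -0.36 (adjusted p 0.0869 and 0.0730), and Spc25 of the same complex by -0.25 (0.121). None of these 3 overlapped between stages. Ndc80 read 7.31 and 7.11 in labelled-null and 7.13 and 7.14 in wild type at E10.5, against 7.35 and 7.59 in labelled-null and 7.40 and 7.70 in wild type at E10. Cenph of the inner kinetochore read 7.23 and 6.66 in labelled-null and 7.19 and 7.21 in wild type at E10.5, against 7.25 and 7.44 in labelled-null and 6.68 and 7.73 in wild type at E10, so that its stages overlapped (-0.20, adjusted p 0.576). Cenpa, the histone that marks the centromere, differed by 0.03 (SE 0.12, adjusted p 0.901).

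All 5 spindle checkpoint genes had negative differences and 3 fell (median -0.53). Bub1, a kinase of the unattached kinetochore, read 8.32 and 7.71 in labelled-null and 7.79 and 7.75 in wild type at E10.5, against 8.83 and 10.06 in labelled-null and 8.50 and 9.56 in wild type at E10. It fell by 1.35 (0.394-fold, SE 0.31, adjusted p 0.0260), the largest difference of the 44 genes, although at E10 replicate 1 minus replicate 2 was -1.23 in labelled-null and -1.06 in wild type. A dimmer second Bub1 probe set differed by 0.14 (adjusted p 0.708), so that the probe sets of this gene disagreed.

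Mad2l1, which encodes the Mad2 protein that blocks the anaphase-promoting complex, read 9.80 and 9.69 in labelled-null and 9.69 and 9.67 in wild type at E10.5, against 10.06 and 10.22 in labelled-null and 10.29 and 10.41 in wild type at E10, and fell by 0.53 (SE 0.11, adjusted p 0.0170). Ttk, the kinase that starts checkpoint signalling, read 8.50 and 8.19 in labelled-null and 8.32 and 8.23 in wild type at E10.5, against 8.68 and 9.28 in labelled-null and 8.63 and 9.16 in wild type at E10. It fell by 0.63 (SE 0.17, adjusted p 0.0433), and neither it nor Mad2l1 overlapped between stages. Bub1b, the BubR1 protein of the checkpoint complex, averaged 11.96 at E10.5 and 12.20 at E10 (-0.24, adjusted p 0.178). Bub3, which carries Bub1 and BubR1 to the kinetochore, read 12.12 and 12.05 in labelled-null and 12.11 and 12.14 in wild type at E10.5, against 12.16 and 11.92 in labelled-null and 12.35 and 12.33 in wild type at E10 (-0.09, adjusted p 0.613). Both of these overlapped between stages.

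Of the 3 anaphase genes 1 rose and none fell, with a median of 0.42. Pttg1, which encodes securin, the inhibitor of separase, read 13.60 and 13.57 in labelled-null and 13.69 and 13.70 in wild type at E10.5, against 13.25 and 12.86 in labelled-null and 13.21 and 13.19 in wild type at E10. It rose by 0.51 (1.43-fold, SE 0.11, adjusted p 0.0215), without overlap. A second Pttg1 probe set rose by 0.86 (adjusted p 0.0249) and the remaining one differed by 0.03. Espl1, separase itself, read 8.60 and 8.53 in labelled-null and 8.77 and 8.63 in wild type at E10.5, against 7.75 and 8.61 in labelled-null and 7.89 and 8.60 in wild type at E10, and its 0.42 (SE 0.21) did not pass (adjusted p 0.203). Both low values were from the replicate 1 arrays at E10. Cdc20, the activator of the anaphase-promoting complex, read 11.71 and 11.68 in labelled-null and 11.88 and 11.83 in wild type at E10.5, against 11.90 and 12.01 in labelled-null and 11.71 and 11.78 in wild type at E10, with overlap (-0.08, adjusted p 0.669).

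None of the 4 chromosomal passenger genes passed. Aurkb, the kinase that corrects faulty attachments, read 10.69 and 10.54 in labelled-null and 10.72 and 10.80 in wild type at E10.5, against 10.84 and 11.01 in labelled-null and 11.01 and 11.18 in wild type at E10, without overlap (-0.32, SE 0.10, adjusted p 0.0657). A second Aurkb probe set passed when tested singly (-0.43, adjusted p 0.0321). Incenp, the scaffold of the complex, differed by -0.32 (SE 0.10, adjusted p 0.0572), again without overlap. Birc5 (survivin) and Cdca8 (borealin) differed by 0.04 and -0.0075 (adjusted p 0.860 and 0.966). Both cytokinesis genes fell. Anln, the anillin scaffold of the contractile ring, read 9.61 and 9.71 in labelled-null and 9.56 and 9.74 in wild type at E10.5, against 10.58 and 10.52 in labelled-null and 10.57 and 10.64 in wild type at E10. It fell by 0.92 (0.528-fold, SE 0.10, adjusted p 0.00317), the smallest adjusted p of the set, and the 4 arrays of each stage lay close together. Ect2, which activates RhoA at the cleavage furrow, read 7.59 and 7.39 in labelled-null and 7.46 and 7.52 in wild type at E10.5, against 8.85 and 8.30 in labelled-null and 8.82 and 8.39 in wild type at E10, and fell by 1.10 (0.467-fold, SE 0.15, adjusted p 0.00545).

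**Figure D2:**
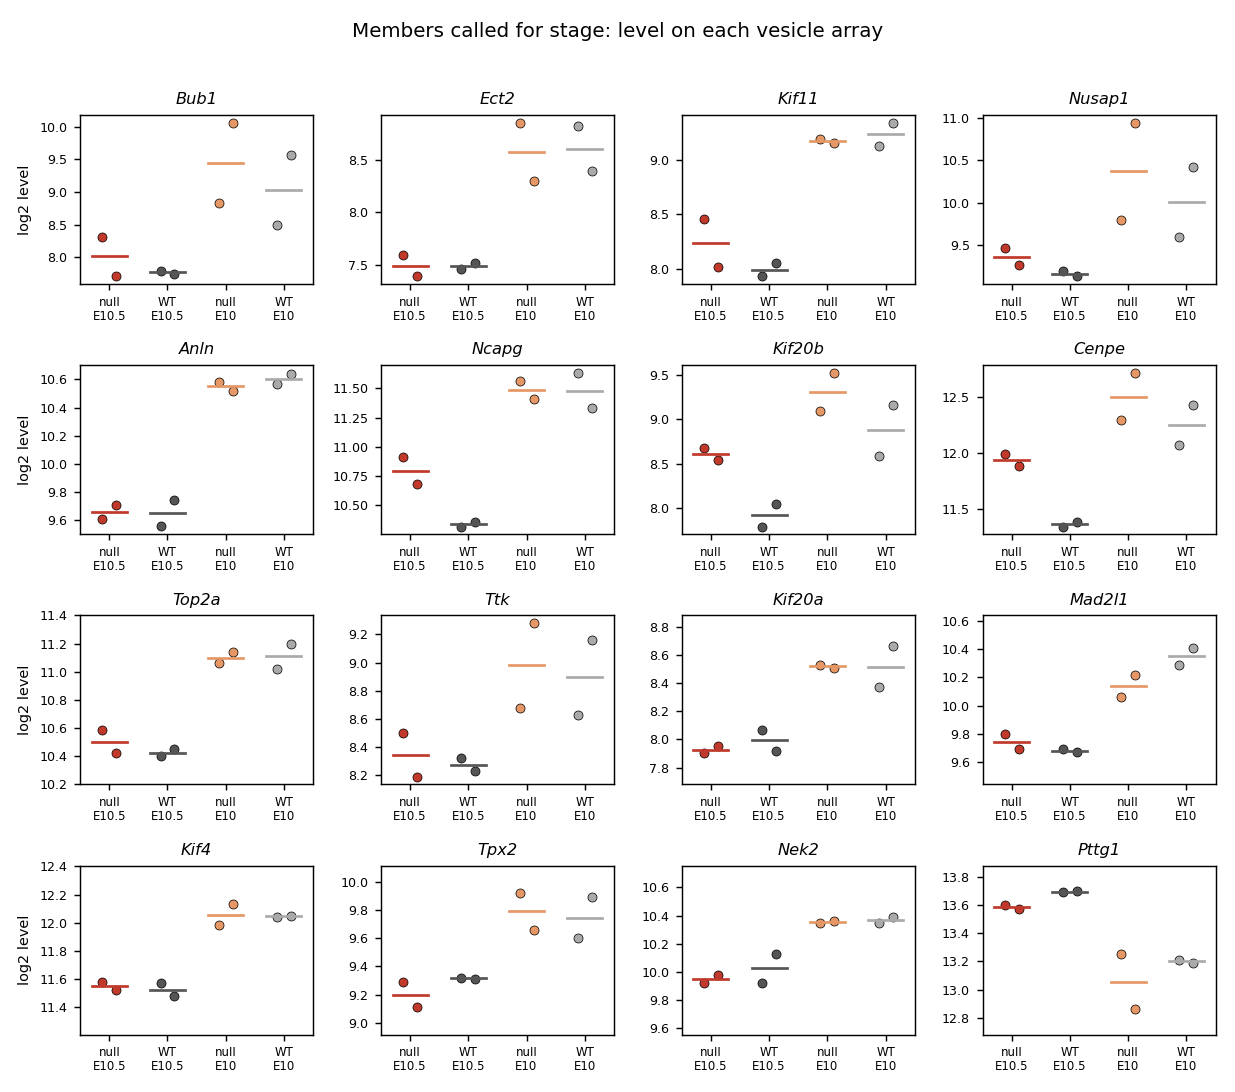
Log2 level (y axis) of each mitosis gene that passed the stage test on each of the 8 vesicle arrays, by group (x axis, labelled-null then wild type at E10.5 and then at E10), with 1 point per array. In 15 of the 16 genes the E10.5 arrays do not overlap the E10 arrays, and Kif20b is the exception.

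The probe sets of a gene mostly gave 1 sign. Of 45 further probe sets of 27 mitosis genes 37 had the sign of the set used, and among 15 further sets of genes that passed 14 did. A shared sign says nothing of size. The second brightest Tpx2 probe set read 7.92 to 8.11 at E10.5 and 7.79 to 8.35 at E10, with overlap, while its dimmer sets averaged lower at E10.5. The call of Bub1 rests on 1 of its 2 probe sets.

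Markers of other cells moved with stage as well. The 8 measured erythroid markers summed to 15.14 to 15.27 in labelled-null and 14.37 to 14.46 in wild type at E10.5, against 12.73 to 13.52 in labelled-null and 12.57 to 13.59 in wild type at E10, and 6 of 7 tested rose. The 8 neuroblast and neuron markers summed to 12.38 to 12.41 in labelled-null and 12.17 to 12.18 in wild type at E10.5, against 10.54 to 11.39 over the 4 arrays at E10, and 6 of 8 rose while 1 fell. The 10 otic epithelium markers summed to 13.97 to 14.10 in labelled-null and 14.07 to 14.08 in wild type at E10.5, against 12.90 to 13.68 in labelled-null and 12.76 to 13.34 in wild type at E10, with 2 risen and 3 fallen. Of the mesenchyme markers 3 of 11 rose, of the endothelium markers 2 of 7, and of the macrophage markers 0 of 3. Their part in the fall of the mitosis genes was not tested.

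The Y-linked gene Eif2s3y also moved with stage, at 4.82 and 5.04 in labelled-null and 3.21 and 3.45 in wild type at E10.5, against 6.5 and 6.17 in labelled-null and 7.04 and 3.96 in wild type at E10. With its level as a covariate 6 of the 44 mitosis genes fell and none rose, namely Anln, Kif11, Top2a, Kif20a, Kif20b and Bub1. Over all genes 233 passed with the covariate, beside 2158 without it. The median difference of the mitosis genes with the covariate was -0.46. Without both E10 replicate 1 arrays, which leaves 1 E10 array per genotype, the median difference was again -0.46. Anln, Kif11 and Top2a fell under all 21 other settings that were run. The number that passed dropped to 5 without either wild-type E10.5 array, all lower, and to 9 and 8 without labelled-null E10.5 replicate 1 or 2. Calls over all genes dropped too. They were 470 and 575 without wild-type E10.5 replicate 1 or 2, and 852 and 908 without labelled-null E10.5 replicate 1 or 2.

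Genes outside the set were read from lists. Of 75 tested among other mitosis genes 17 fell and 3 rose, with a median of -0.23, where 6.54% of all genes fell and 9.28% rose. Knl1, the kinetochore scaffold that binds Bub1, fell by 1.30 (adjusted p 0.0172) and the kinetochore protein Mis12 by 0.88 (0.00677), while the checkpoint protein Mad1l1 rose by 0.89 (0.0139) and Fzr1, the activator of the anaphase-promoting complex after mitosis, by 0.81 (0.0234). Of 26 genes of S phase 2 fell and none rose, the replication factors Mcm10 and Mcm6 (by 0.42 and 0.35, median of the list -0.22), a share of 7.69% that lay near that of all genes. Of 17 genes of cell cycle exit and the cyclin D family 4 rose and none fell (median 0.16), with Ccnd3 at 0.98 and the inhibitors Cdkn1c at 0.76, Btg1 at 0.62 and Cdkn2d at 0.50. The last list held 9 tested genes, namely relatives of the set's genes and the further centromere genes Cenpb and Cenpc1. In it Cenpb rose by 1.43 and Plk2 by 0.48, while Cenpc1 and Top2b fell by 0.83 and 0.77. The shares of all genes apply to these short lists as well.

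Stage was then read within each genotype, where groups of 2 arrays are compared. In wild-type vesicles 3 of 44 mitosis genes fell, against 0.997% of all genes, and at an unadjusted p under 0.05 21 of 44 were lower, against 7.43%. These 3 were Kif11 at -1.25 (adjusted p 0.0365), Ncapg at -1.14 (0.0365) and Anln at -0.96 (0.0371). The 3 largest positive differences were Pttg1 at 0.50, Espl1 at 0.46 and Ncaph at 0.12, and Bub1 had the largest negative one at -1.26 (adjusted p 0.184). The number that passed was 0 to 7 when 1 array was left out, with 0 without wild-type E10 replicate 1, without either wild-type E10.5 array and without either labelled-null E10.5 array, the labelled-null arrays entering through the shared spread. Without both E10 replicate 1 arrays each E10 group holds 1 array, so the spread within groups comes from the E10.5 arrays alone. The median difference in wild type was then -0.53.

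In labelled-null vesicles 0 of 44 passed, against 0% of all genes lower, and 18 of 44 were lower at an unadjusted p under 0.05, against 7.81%. Without both E10 replicate 1 arrays, which leaves 1 labelled-null E10 array, the median difference was -0.40. Bub1 differed by -1.43 (adjusted p 0.238), Ect2 by -1.09 (0.116), Nusap1 by -1.01 (0.297) and Anln by -0.89 (0.0803), and Pttg1 was highest at 0.53 (0.222). The median difference of the 44 genes was -0.27 in labelled-null and -0.35 in wild type. The wild-type and labelled-null stage comparisons share no arrays. Across the 44 genes their differences correlated at 0.86 (Pearson), beside 0.80 over all 13645 genes, and 36 (81.8%) had the same sign, beside 77.9% of all genes, with 32 lower in both and 4 higher in both. Genes are not independent replicates.

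**Figure D3:**
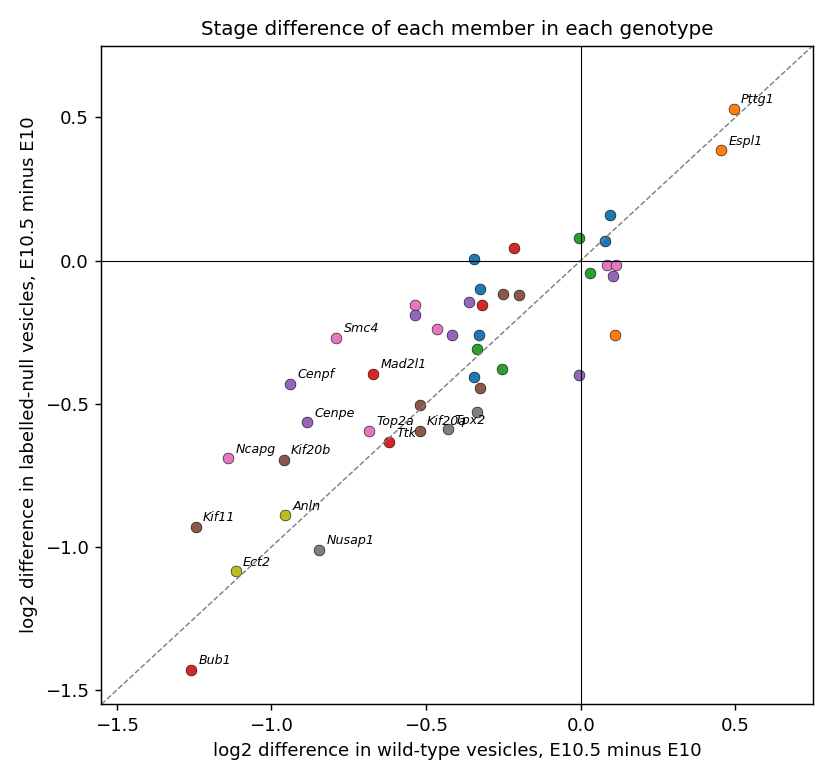
Log2 difference between E10.5 and E10 in labelled-null vesicles (y axis) against the same in wild-type vesicles (x axis), 1 point per mitosis gene. Of 44 points 32 lie below 0 in both genotypes, with Bub1 at -1.43 and -1.26, and 4 lie above 0 in both, among them Pttg1 at 0.53 and 0.50.

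The question of Dlx5 was put to the vesicles by genotype. Over both stages 0 of 44 mitosis genes passed, against 0.0220% of all genes tested, and 2 had an unadjusted p under 0.05, against 4.10%. The median log2 difference was 0.0025, with 22 genes higher and 22 lower in labelled-null, and the SE of a single gene was 0.09 to 0.31. The largest differences were those of the kinesins Kif20b and Cenpe. Kif20b was higher in labelled-null by 0.56 (SE 0.17, p 0.00866, adjusted p 0.863) and Cenpe by 0.42 (SE 0.14, p 0.0181, adjusted p 0.996), with overlap between genotypes when stages were pooled. Bub1 differed by 0.33, while Kif23, Bub3 and Cdk1 had the largest negative differences at -0.21, -0.17 and -0.16.

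At E10 0 of 44 passed, against 0% of all genes, and 0 had an unadjusted p under 0.05, against 3.31%. Groups did not overlap in 6 of 44, against 17.4% of all genes, with 5 of the 6 lower in labelled-null. Bub3 was lowest at -0.30 (SE 0.15), followed by Ccna2 at -0.23 and Mad2l1 at -0.21, and Kif20b, Bub1 and Nusap1 were highest at 0.43, 0.42 and 0.37. Replicate 1 minus replicate 2 of Bub1 was -1.23 in labelled-null and -1.06 in wild type, and that of Nusap1 -1.14 and -0.83, so that both genotype differences were less than the spread between replicates.

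At E10.5 0 of 44 passed, against 0.00733% of all genes, and 3 had an unadjusted p under 0.05, against 2.95%. All 3 were higher in labelled-null: Kif20b by 0.70 (SE 0.24, p 0.0236), Cenpe by 0.58 (SE 0.20, p 0.0227) and Ncapg by 0.46 (SE 0.17, p 0.0323), each with an adjusted p of 1.00. Cenpf followed at 0.57 with a wider error (SE 0.39). The lowest were Kif23 at -0.27, Cenph at -0.26 and Prc1 at -0.19. Groups of 2 did not overlap in 24 of 44, against 45.1% of all genes, with 13 of them higher and 11 lower. For the interaction, the change of the genotype difference between stages, 0 of 44 passed, against 0% of all genes, and 0 had an unadjusted p under 0.05, against 1.97%. Smc4, Cenpf and Ncapg had its largest positive values at 0.52, 0.51 and 0.45, and Cenph, Cdc20 and Prc1 its largest negative ones at -0.40, -0.37 and -0.20, with SEs of 0.20 to 0.55. The genotype differences at E10.5 and E10, which share no arrays, correlated at 0.42 across the 44 genes and at 0.20 over all genes. Of the 75 other mitosis genes 0 passed, and the largest differences were Ska3 at -0.43 and Ncapd3 at -0.38 (adjusted p 0.999 each).

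**Figure D4:**
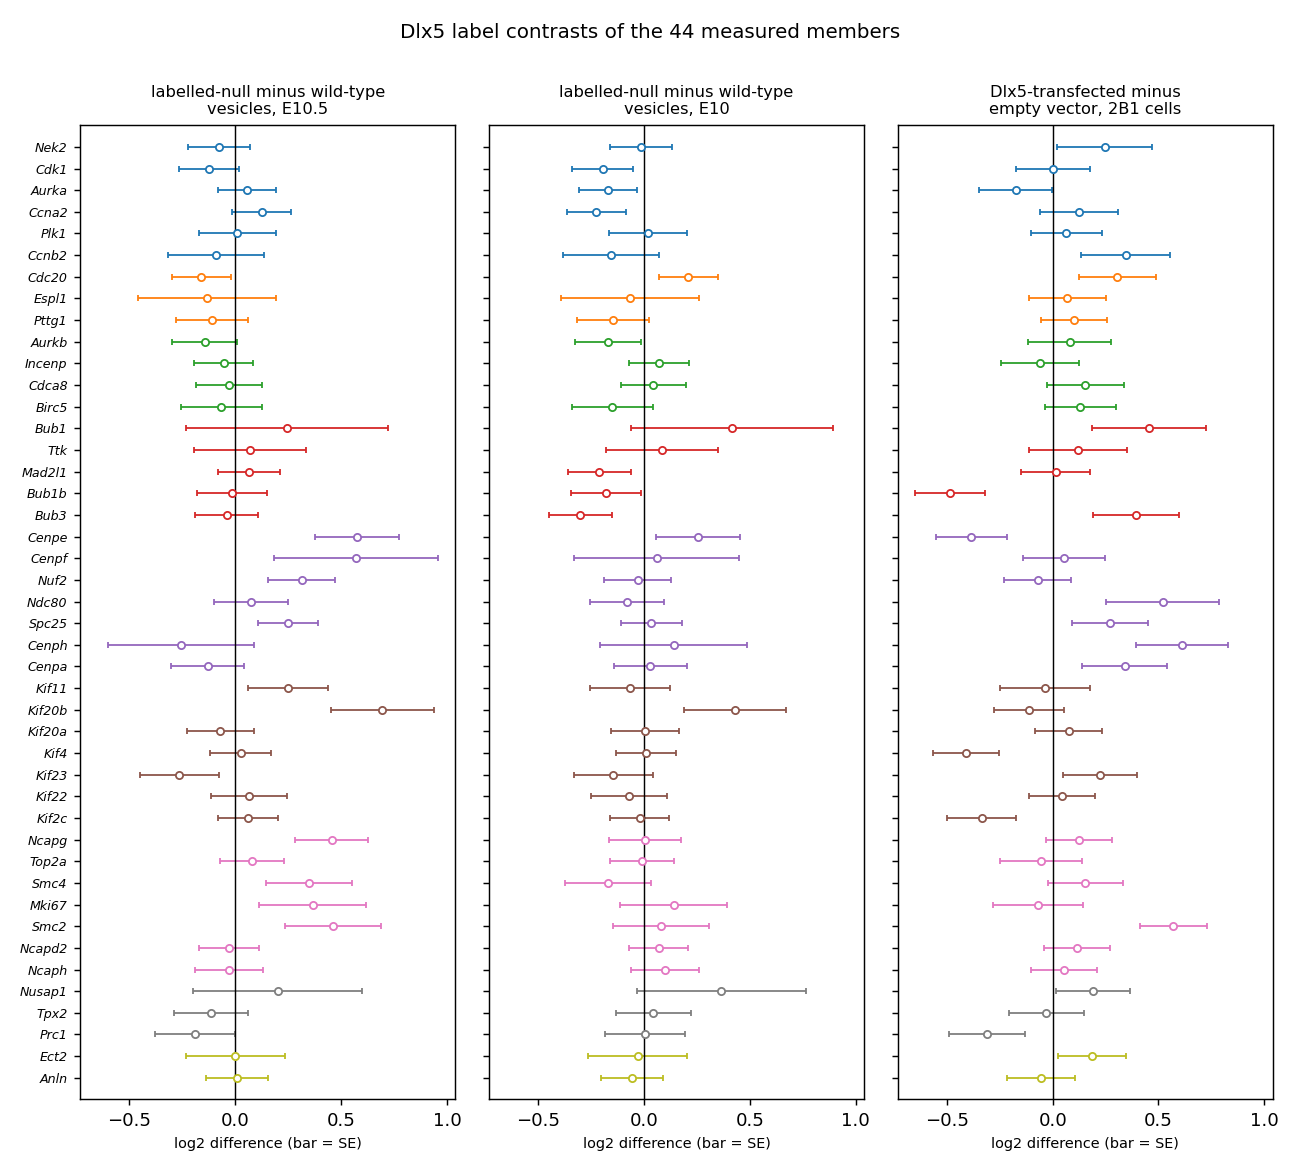
Log2 difference of each of the 44 mitosis genes (x axis, with the SE as bars) between labelled-null and wild-type vesicles at E10.5 and at E10 and between 2B1 cells labelled Dlx5 and empty vector, 1 row per gene. No gene passed in any of them, and at E10.5 Kif20b and Cenpe lie farthest right, at 0.70 and 0.58.

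In 2B1 cells the comparison sets the arrays labelled Dlx5-transfected against those of the empty vector. Of 44 genes 0 passed, against 0% of all genes tested, and 4 had an unadjusted p under 0.05, against 12.9%. The median difference was 0.08, and that of all genes 0.045. Smc2 read 10.43 and 10.32 on the arrays labelled Dlx5, against 9.83 and 9.78 in the controls, and its difference was 0.57 (SE 0.16, p 0.00738, adjusted p 0.377). These values are from its probe set brightest in 2B1 cells. The Smc2 set used in vesicles read 8.89 and 8.81, against 8.68 and 8.95, with overlap. A further set read 7.51 on both Dlx5 arrays, against 7.25 and 7.40. Cenph read 6.84 and 7.07 with Dlx5, against 6.07 and 6.62 with the empty vector (0.61, SE 0.22, adjusted p 0.382). Cenph and the Smc2 set given first lay above the empty vector arrays without overlap.

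Bub1b read 9.0 and 9.06 with Dlx5, against 9.40 and 9.63 in the controls, and its difference was -0.49 (SE 0.17, p 0.0203, adjusted p 0.377). Kif4 read 9.68 and 9.64 with Dlx5, against 10.05 and 10.09 with the empty vector (-0.41, SE 0.16, adjusted p 0.382). Both lay below the empty vector arrays. Cenpe read 12.13 and 12.23 with Dlx5, against 12.45 and 12.68 with the empty vector (-0.39, adjusted p 0.386), and Ndc80 read 7.32 and 7.48, against 6.46 and 7.30 (0.52, adjusted p 0.421). Groups did not overlap in 22 of 44, against 48.8% of all genes, with 17 higher and 5 lower.

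The 2B1 arrays were not even. Empty vector replicate 1 had a narrower spread over all probe sets (SD 2.19) than the other 3 arrays (2.29 to 2.31), and 6 of its 44 mitosis genes lay above their own mean, beside 31 and 27 in the Dlx5 arrays and 34 in empty vector replicate 2. Cdk1 read 10.66 and 10.69 with Dlx5, against 10.52 and 10.83 with the empty vector, and Mki67 read 8.60 and 8.68, against 8.43 and 8.99, so that both Dlx5 values lay between the empty vector values. Without empty vector replicate 1 the median difference was -0.04, and without replicate 2 it was 0.18. Of 27 S phase genes 0 passed and 6 were higher at an unadjusted p under 0.05, led by Cdc6 at 0.86 and Rfc3 at 0.71 (adjusted p 0.377 each), where 9.71% of all genes were higher at that p. Of 74 other mitosis genes 0 passed, with Cep55 and Cenpp highest at 0.76 and 0.75.

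Last, the cells were set beside the vesicles as a description, with no test. The arrays of the cell line appear to have been normalized apart from those of the vesicles, so all 12 were quantile normalized together first. In 2B1 cells with the empty vector 29 of the 44 genes were lower and 15 higher than in wild-type vesicles, with a median of -0.49 beside -0.16 for all genes. More than 1 lower were 16 of the 44, beside 24.4% of all genes, and more than 1 higher were 6, beside 14.1%. In 21 genes all 4 cell arrays lay below all 8 vesicle arrays, and in 8 they lay above. The same count was not made over all genes, so these 2 numbers cannot be read as particular to the set. Each gene, in the set and over all genes, was read from the probe set brightest in vesicles. That choice favours high vesicle values and so can tilt these counts toward lower in 2B1 cells. Ccna2 differed by -1.86 on the set used and by 0.32 on its other.

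Some of the widest differences rest on 1 of several probe sets. Among condensin genes Ncapd2 averaged 7.55 in 2B1 cells and 10.60 in wild-type vesicles (-3.06), but its second probe set, at 8.99 in vesicles, differed by only 0.055. Smc4 averaged 12.98 in 2B1 cells and 9.69 in vesicles (3.29), with 3.24 and 1.18 for its other probe sets, and Ncapg 12.16 and 10.67 (1.5), with 3.07 for its other. Among kinetochore genes Cenpa averaged 8.80 in 2B1 cells and 11.60 in vesicles (-2.80), with -0.66 and -0.26 for its dimmer probe sets, while Nuf2, with 1 probe set, averaged 11.38 and 9.52 (1.87). Of the checkpoint genes Mad2l1 was 1.76 higher in 2B1 cells, and the differences of Bub1b, Ttk and Bub3 were -1.94, -1.91 and -1.86. The other probe sets of Bub1b differed by -1.37 and -2.19, that of Ttk by -0.55, and those of Bub3 by -2.38 to 0.54. Plk1 averaged 13.12 in 2B1 cells and 12.87 in vesicles (0.24), Cdk1 11.12 and 11.95 (-0.83) and Mki67 9.23 and 9.56 (-0.33). The size of the median depends on the normalization, at -1.17 with values as deposited.

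**Figure D5:**
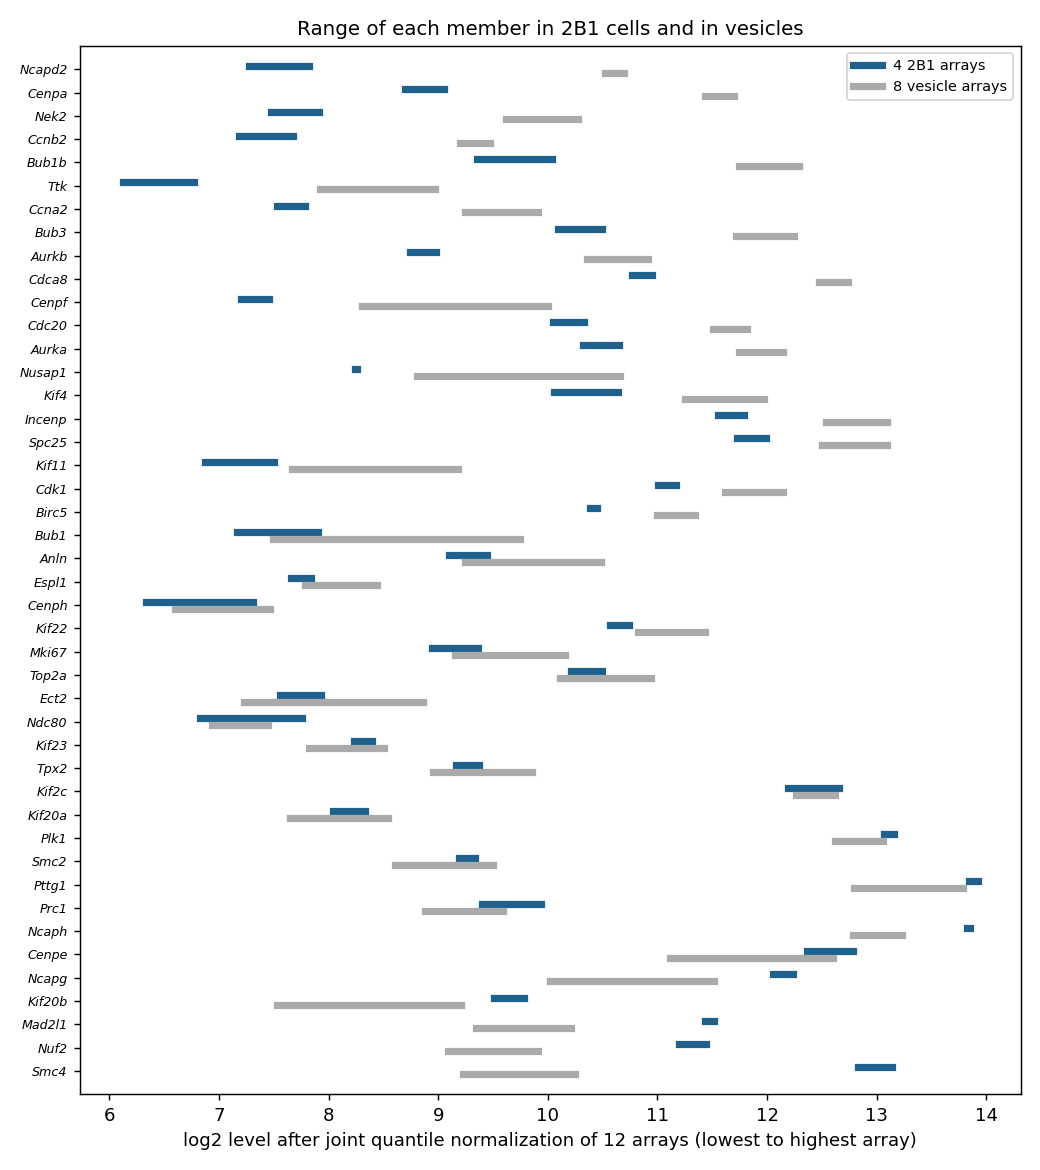
Range of each mitosis gene over the 4 arrays of 2B1 cells and over the 8 vesicle arrays (x axis, log2 level after joint quantile normalization, lowest to highest array), 1 row per gene, from the probe set brightest in vesicles. Ncapd2 and Cenpa lie far lower in 2B1 cells, although their other probe sets differed by 0.055 and by -0.66 and -0.26, Smc4 and Nuf2 lie far higher, and the ranges of Top2a and Tpx2 overlap.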

How the data were processed

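Each of the 12 samples was read on its own Affymetrix mouse array. The authors deposited log2 values for 45101 probe sets, made in Affymetrix Expression Console with RMA, per the submitters' processing notes, which name no versions here. That method compresses differences of dim probe sets. No detection calls were used, so signal over background is unknown, and with 2 arrays per group their number limits precision. Scan dates were not used here, so scanning batches were not tested.

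Gene tests used the 34958 probe sets listed to a single gene, and not the 932 listed to several or the 9211 listed to none. Symbols were updated through a RefSeq table of GRCm38.p6 (34754 by gene identifier, 1 by accession, 203 kept), giving 18194 genes. Each gene was read from its brightest probe set, judged by the mean within the fit, and the dimmest 25% of genes were dropped. All 44 measured mitosis genes stayed in.

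Differences were fitted with limma 3.58.1 in R 4.3.3 (lmFit, eBayes, Benjamini-Hochberg over all genes, threshold 0.05). The fits over both stages or both genotypes had 5 residual degrees of freedom, those of the 4 vesicle group means 4, and that of 2B1 cells 2, and vesicle comparisons share arrays. The fits were tested on simulated data. Groups and replicate numbers came from the sample titles, and no arrays held the same values (at most 2.78% equal). Same-numbered arrays did not deviate together in every pair of groups (correlations 0.71 at E10, 0.07 at E10.5 and -0.13 in 2B1 cells), so the numbers were not taken as pairs. Alternatives changed the probe set rule, the filter, the normalization, the variance model, a sex-linked covariate and the arrays left in.

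The mitosis genes and all lists were chosen with earlier results of these data known. Values on every array were to be given for genes past the threshold (up to 12 per comparison by adjusted p), for the 3 largest positive and negative differences per comparison, for the gene of each role with the widest range of vesicle group means, and for Ccnb1, Cdk1, Plk1, Aurkb, Bub1, Top2a and Mki67. Up to 4 genes were named from each other list, those past the threshold first. Promoter windows came from a RefSeq table, matched by symbol.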

Additional observations from a re-analysis of the deposited data

How the results depend on the processing

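For the 16 genes that passed between stages, all 335 alternative values had the sign given above, and 266 passed the threshold. These genes were picked for passing on the same arrays, which the alternatives reuse. Their kept sign was therefore likely beforehand and is no support of its own. The number that passed over both genotypes was 27 after quantile normalization again and with array weights, 26 without both E10 replicate 1 arrays, 6 with Eif2s3y as a covariate, and 5 to 18 when 1 array was left out. In the wild type it was 13 after quantile normalization again, 10 with an intensity trend, 5 with the lowest 50% of genes left out or with arrays scaled to 1 SD, 0 with arrays centred on the median or without moderation, 19 without both E10 replicate 1 arrays, and 0 to 7 when 1 array was left out. In the labelled-null it was 1 with an intensity trend, beside 109 of all genes. Calls over all genes rose or fell too, so these counts do not stand for the mitosis genes alone. Leaving out both E10 replicate 1 arrays leaves 1 array in each E10 group, so no count is given for that setting alone. The median difference was then -0.46 over both genotypes, -0.53 in the wild type and -0.40 in the labelled-null. The causes were not tested, beyond the fewer arrays where arrays were left out. No mitosis gene passed in the genotype, interaction or 2B1 comparisons under any alternative run.

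With replicate number as a block within stage 27 passed over both genotypes, beside 5257 of all genes. In the wild type 21 passed, beside 4098, and in the labelled-null 14, beside 2279. Calls rose over all genes, so the rise is not particular to the mitosis genes. The block changed no call of a mitosis gene in the other comparisons. The crossed 2B1 pairing, chosen after seeing the data, gave 0.

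Some small differences changed sign, with causes not tested. Between stages over both genotypes Ccnb2 was -0.013 with array weights, -0.13 with the Eif2s3y covariate and -0.09 without both E10 replicate 1 arrays, and Espl1 -0.027 with that covariate. Without those 2 arrays the labelled-null stage difference was -0.045 for Espl1 and -0.065 for Ccnb2, the wild-type one -0.015 for Ncaph (-0.031 with arrays scaled), and the interaction of Cenph 0.035. Leaving out 1 array gave -0.065 to 0.39 for Ccnb2 and -0.045 to 0.82 for Espl1 between labelled-null stages, and -0.015 to 0.25 for Ncaph between wild-type stages. Between genotypes at E10 it gave -0.20 to 1.03 for Bub1 and -0.21 to 0.94 for Nusap1, at E10.5 -0.54 to 0.03 for Cenph, and for the interaction -0.92 to 0.13 for Cenph, -0.40 to 0.01 for Prc1 and -0.065 to 1.09 for Cenpf. The median difference of 2B1 cells from vesicles was -1.17 with values as deposited and -0.93 with arrays centred on the median. In the 150 bases before the start site CCAAT was in 69.0% of windows and TTTGAA in 35.7%, against 24.5% and 9.07% of all windows.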

Other observations

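Within E10 the replicates differed over all genes, and the mitosis genes were among them. In 24 of the 44 both replicate 1 arrays lay below both replicate 2 arrays, and in 6 they lay above, beside 45.9% and 23.0% of all genes tested. Replicate 1 minus replicate 2 was -1.23 in labelled-null and -1.06 in wild type for the checkpoint kinase Bub1, and -1.14 and -0.83 for the microtubule bundler Nusap1. For the kinetochore protein Cenpf it was -1.15 and -0.75, and for separase, Espl1, -0.86 and -0.71. Ttk read -0.60 and -0.53, and Mki67 -0.51 and -0.47. These are among the wider gaps, and Ect2, among the 6 genes above, lay the other way at 0.55 and 0.43. Bub1 and Nusap1 are also among the genes that fell between stages. The E10 replicate 1 arrays are those with the narrow spread of values and the low Xist level.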
